A study of Mus musculus with 10 samples.

Results

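A set of 10 genes for calcium-binding proteins of neurons was followed between the dorsal and the ventral hippocampus: the calcium buffers calretinin (Calb2), calbindin (Calb1) and parvalbumin (Pvalb), and the calcium sensors Necab1, Vsnl1, Hpca, Hpcal1, Hpcal4, Ncald and Ncs1. They were taken by gene symbol, and not by a threshold on their values, as the calretinin, calbindin and parvalbumin genes together with the visinin-like sensor family and Necab1. The choice was made with earlier results of these data known. They are 10 of the 54838 genes in the count tables. All 10 passed the filter on low counts, as did 16806 genes in all. The libraries came from male C57BL/6 mice of about 10 weeks that carried the genotype MC-TRAP (Drd2-Cre;Eef1a1LSL.eGFPL10a/+), alike in both groups and with no treatment named in the labels. In these mice Cre expressed under the Drd2 gene switches on an EGFP-tagged ribosomal protein, so that ribosome-bound RNA of the Cre-expressing cells can be precipitated with an antibody to EGFP (translating ribosome affinity purification, TRAP). By their labels the 5 dorsal and 5 ventral libraries differed in the piece of hippocampus alone. In the study's dissection the dorsal piece was the shorter, and the ventral subiculum was removed from the ventral end. Measures of the libraries that also differed are given below. Each library was a pool of 5 mice, so that the replicate is a pool and p-values measure the spread between pools. The study divided each hippocampus into both pieces, so dorsal and ventral pools can share mice. The test treated them as unpaired. The samples are labelled as hippocampal mossy cells, although by the study's own histology the Drd2-Cre line also marks sparse GABAergic interneurons of the CA fields and neurons of the ventral subiculum.

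Calcium that enters a neuron during activity is mostly bound within moments, and the proteins that bind it fall into broad classes. Buffers such as calretinin, calbindin and parvalbumin take up calcium and shape how long and how far a calcium signal lasts, and they are classic markers of neuron types: calretinin of mossy cells of the ventral hippocampus in the mouse and of some interneurons, calbindin of granule cells, CA1 pyramidal cells and some interneurons, and parvalbumin of fast-spiking interneurons. Sensors change shape when calcium binds and act on other proteins. Many of the neuronal sensors carry a myristoyl group that is exposed on calcium binding and brings the protein to a membrane. Both classes bind calcium through EF-hands, a helix-loop-helix fold whose loop holds the ion.

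The sensors of this set apart from Necab1 are close relatives. The sequences below are shown because reads of near-identical genes can be counted for the wrong gene. Each line gives the same 60 coding bases of a transcript in the GENCODE annotation of GRCm38, starting within codon 100 and read 5′ to 3′, a stretch that holds most of the loop of an EF-hand. In the Hpca line the capitals mark the run of 46 bases that Hpca and Ncald share, and in the other lines they mark bases that are the same as in Hpca.
Hpca: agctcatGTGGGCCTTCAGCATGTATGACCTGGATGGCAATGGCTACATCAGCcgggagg
Ncald: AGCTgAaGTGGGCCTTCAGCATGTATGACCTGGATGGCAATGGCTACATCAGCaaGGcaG
Hpcal1: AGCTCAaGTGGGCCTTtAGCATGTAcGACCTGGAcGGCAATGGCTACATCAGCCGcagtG
Hpcal4: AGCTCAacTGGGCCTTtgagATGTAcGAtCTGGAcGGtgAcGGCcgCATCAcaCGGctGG
Vsnl1: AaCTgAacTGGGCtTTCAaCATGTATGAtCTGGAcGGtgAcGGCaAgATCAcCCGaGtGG
Ncs1: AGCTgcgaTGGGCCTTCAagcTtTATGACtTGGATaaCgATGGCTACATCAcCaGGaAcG

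The Hpca stretch lies in exon 4 on the minus strand at chr4:129118384-129118443, and that of Ncald in exon 5 on the minus strand at chr15:37397077-37397136. The Hpcal1 stretch is in exon 2 on the plus strand at chr12:17786469-17786528, and the Hpcal4 stretch in exon 4 on the plus strand at chr4:123189161-123189220. The Vsnl1 stretch is in exon 3 on the minus strand at chr12:11332021-11332080, and that of Ncs1 is spliced from exons 4 and 5 on the plus strand within chr2:31282379-31284197. Of the 60 bases, 54 were the same as in Hpca for Ncald, 52 for Hpcal1, 44 for Vsnl1, 44 for Ncs1 and 42 for Hpcal4. The run of 46 bases in Hpca and Ncald was the longest that any pair of the 10 genes shared over all their annotated transcripts. It is shorter than the 50-base reads, and no pair shared a stretch of 50 bases, so that no read that matches over its full length could stem from 2 of these genes.

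Of the 10 genes, 6 were called ventral-enriched (Calb2, Necab1, Hpcal1, Calb1, Vsnl1 and Pvalb) and 0 dorsal-enriched, beside 9.85% and 15.7% of all tested genes (25.5% in either direction). As the set was chosen with earlier results of these data known, these counts describe it and do not test it. Calretinin was higher in ventral libraries by 9.48-fold, Necab1 by 2.98-fold, Hpcal1 by 2.01-fold, calbindin by 1.84-fold and Vsnl1, the most abundant of the set, by 1.66-fold. Levels are given as CPM, the count of a gene relative to the library's counts on genes after scaling by edgeR's TMM factors, and a gene was called where the adjusted p of edgeR's quasi-likelihood test over all tested genes was below 0.05 and the absolute log2 ratio of mean CPM plus 1 was above 0.58. The remaining members, Hpca, Hpcal4, Ncald and Ncs1, were not called. The adjusted p alone was below 0.05 in 7 members, the 6 called and Hpca, beside 33.6% of all tested genes. At an unadjusted p under 0.05 the test gave 1 dorsal-side and 7 ventral-side members. The share of all tested genes under this unadjusted limit was not counted, and it is at least the 33.6% given above. DESeq2 called 0 members dorsal-enriched and 5 ventral-enriched, leaving out Pvalb, beside 2560 and 1458 of the 16806 tested genes. The median log2 fold change of dorsal over ventral was -0.68 over the 10 genes and -0.0044 over all tested genes. In 6 members every ventral library lay above every dorsal library and in 1, Hpca, every dorsal library lay above every ventral library, patterns found in 8.36% and 9.81% of all tested genes. In these bulk precipitates, fewer cells of a type and less RNA per cell cannot be told apart.

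**Figure D1:**
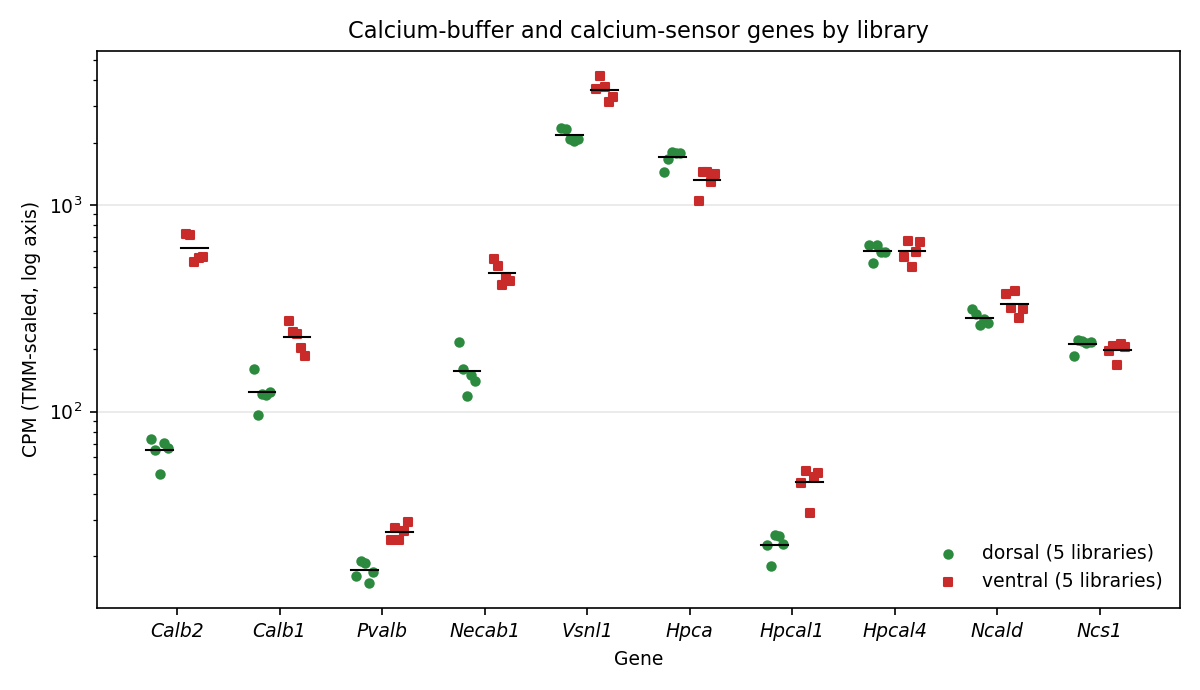
Level of each of the 10 genes in every library (CPM on a log axis), with green circles for the 5 dorsal and red squares for the 5 ventral libraries and black lines for the means of each group. The ventral squares of Calb2, Calb1, Pvalb, Necab1, Vsnl1 and Hpcal1 sit above all dorsal circles, those of Hpca sit below them, and those of Hpcal4, Ncald and Ncs1 overlap with them.

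The libraries held 11138676 to 16779821 counts on genes in the dorsal group and 11618625 to 20594364 in the ventral group, so that 3 counts, taken as the smallest level these depths can show, are 0.146 to 0.269 CPM. This floor covers counting error only, as the RNA was amplified and several reads can stem from 1 molecule. Other measures also moved with the groups. Read pairs on no gene were 21.8% to 33.9% of dorsal and 11.6% to 19.3% of ventral read pairs, and messenger RNAs of the mitochondrial genome took 2773 to 3523 CPM in the dorsal and 446.8 to 1257 CPM in the ventral libraries (two-sided exact permutation test, p = 0.00794 for each, the smallest that 5 against 5 libraries allow). The summed level of 6 oligodendrocyte markers was 2199 to 2574 CPM in the dorsal and 792 to 1453 CPM in the ventral libraries, with 3 called dorsal-enriched. The 5 astrocyte markers summed to 170.5 to 230.2 against 61.8 to 185 CPM (3 called dorsal-enriched, 1 ventral-enriched), the 5 microglial markers to 19.5 to 23.7 against 12.3 to 24.8 CPM (1 dorsal-enriched), and the 5 endothelial markers to 5.18 to 31.8 against 9.42 to 45.5 CPM (0 called by edgeR or DESeq2, 1 with an unadjusted p under 0.05). The part of these measures in the results was not tested.

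The labelled cell type was checked by its markers. Of 8 mossy cell markers, summing to 1931 to 2115 CPM in the dorsal and 1437 to 1565 CPM in the ventral libraries, 3 were called dorsal-enriched and 1 ventral-enriched, and the first of them, Drd2 and Calcrl, stood at 28.1 and 7.52 CPM in the dorsal and 20.7 and 8.25 CPM in the ventral libraries. With offsets that remove the trend of each library with GC content and exonic length, the list had 2 dorsal-enriched genes and 1 ventral-enriched gene. Gria2, an AMPA receptor subunit named here after its values were seen, made up much of the sum, at 1143 against 651 CPM, and its log2 fold change went from 0.81 to -0.01 with these offsets. GABAergic markers were high in every library as well, with Gad1 and Gad2, which encode the enzymes that make GABA, at 257.5 and 2853 CPM in the dorsal and 355 and 3174 CPM in the ventral libraries. Gad2 ranked 15 of all tested genes by mean CPM. The 10 GABAergic markers summed to 3695 to 4859 CPM in the dorsal and 4436 to 5850 CPM in the ventral libraries, above the mossy cell sums. Sums over lists of different genes do not measure the share of each cell type. No gene of any marker list was at 0 in every library.

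Calretinin (Calb2, ENSMUSG00000003657, chr8:110137502-110168210, minus strand) showed the widest difference of the set. Its level in dorsal libraries 1 to 5 was 73.95, 65.3, 49.7, 70.6 and 66.3 CPM, and in ventral libraries 1 to 5 it was 726, 712, 529, 555 and 559.6 CPM. Every ventral library was thus far above the highest dorsal library. The means were 65.2 ± 9.32 and 616 ± 94.6 CPM (SD, n = 5 each), and the log2 fold change of dorsal over ventral was -3.24 with a standard error of 0.14 (95% interval -3.54 to -2.95, edgeR adjusted p = 1.06e-08). The border between the dorsal and ventral pieces was set with the known calretinin gradient in view, so that a difference in this gene is partly built into how the tissue was divided. Calretinin is also made by interneurons, by Cajal-Retzius cells and by immature granule cells. The 10 GABAergic markers summed to 3695 to 4859 CPM in the dorsal and 4436 to 5850 CPM in the ventral libraries, with 2 called ventral-enriched. With the GC and length offsets 1 was dorsal-enriched and 0 ventral-enriched. Gad2, at 2853 and 3174 CPM, made up much of this sum. Of the 10 markers, 9 were lower in the dorsal libraries, and the median log2 fold change was -0.39. At an unadjusted edgeR p under 0.05 there were 6 on the ventral side and 1 on the dorsal side. The share of all tested genes under that limit was not counted. It is at least the 33.6% with an edgeR adjusted p below 0.05 in either direction. The 5 Cajal-Retzius markers summed to 261 to 449 CPM in the dorsal and 422 to 509.6 CPM in the ventral libraries, with 2 called ventral-enriched (3 with the offsets). Their first genes, Trp73 and Lhx1, were at 9.59 and 4.93 CPM in the dorsal and 10.8 and 10.7 CPM in the ventral libraries. Most of the Cajal-Retzius sum came from Reln (107 and 151 CPM) and Ndnf (220 and 278 CPM). These genes are named after their values were seen. Neither was called without the offsets, and with them Reln was called ventral-enriched and Ndnf was not called. The 5 immature granule cell markers, of which 4 were tested and 2 called dorsal-enriched, lay on the other side, with sums of 169.7 to 255.6 CPM in the dorsal and 115 to 151 CPM in the ventral libraries. The first of them, Dcx and Sox11, were at 65.3 and 97.5 CPM in dorsal and 46.5 and 45.9 CPM in ventral libraries. Of these sums the GABAergic and Cajal-Retzius ranges overlapped between the groups, and their part in the calretinin difference was not tested.

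Calbindin (Calb1, ENSMUSG00000028222, chr4:15881264-15908064, plus strand) stood at 159.7, 95.9, 122, 121 and 124 CPM in dorsal libraries 1 to 5 and at 274, 243.5, 237, 204 and 185 CPM in ventral libraries 1 to 5. The lowest ventral library was above the highest dorsal library, but the gap between the groups was narrow beside the range within them. The means were 124 ± 22.8 and 229 ± 34.8 CPM (SD, n = 5 each), with a log2 fold change of -0.88 and a standard error of 0.14 (95% interval -1.18 to -0.58, edgeR adjusted p = 0.000546). The longest Calb1 transcript is poor in GC (36.8%). With the offsets that remove each library's trend with GC content and exonic length, the log2 fold change became -1.60 (edgeR adjusted p = 5.74e-06). Calbindin marks mature granule cells and CA1 pyramidal cells. The 6 mature granule cell markers summed to 302 to 364.5 CPM in the dorsal and 126 to 285 CPM in the ventral libraries with 2 called dorsal-enriched (3 with the offsets). Of their first genes, Prox1, the granule cell transcription factor, was at 289 against 175 CPM and was called, and Dsp, a desmosomal protein, was at 13.4 against 16.4 CPM and was not. The 5 CA1 markers summed to 175 to 257 CPM in the dorsal and 252.5 to 375 CPM in the ventral libraries with 2 called ventral-enriched, and with the offsets 1 was called on each side. Their first genes, Fibcd1 and Wfs1, were at 10.2 and 100.5 CPM in dorsal and 7.30 and 115 CPM in ventral libraries, and the part of either list in the calbindin difference was not tested.

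Parvalbumin (Pvalb, ENSMUSG00000005716, chr15:78191114-78206400, minus strand) was among the low members and rested on 171 to 620 counts per library. Its level was 16.1, 18.9, 18.5, 14.9 and 16.8 CPM in dorsal libraries 1 to 5 and 24.0, 27.5, 23.9, 26.6 and 29.3 CPM in ventral libraries 1 to 5. The groups did not overlap. The means were 17.03 ± 1.66 and 26.2 ± 2.32 CPM (SD, n = 5 each), with a log2 fold change of -0.63 and a standard error of 0.14 (95% interval -0.93 to -0.32, edgeR adjusted p = 0.00481). The log2 ratio that decides the call was -0.59, just past the threshold, and the call was lost without dorsal replicate 1 (log2 fold change -0.61), 4 (-0.57) or 5 (-0.61), without ventral replicate 2 (-0.61) or 5 (-0.57) and in 7 other settings, while the adjusted p stayed below 0.05 in all of them. Of 5 other genes of parvalbumin interneurons, 4 were tested and 1, Tac1, was called ventral-enriched (named after its values were seen, 3.81 against 9.31 CPM, log2 fold change -1.33, edgeR adjusted p = 0.00139), and their sum of 88.2 to 132 CPM in dorsal libraries overlapped with 86.6 to 112 CPM in ventral libraries. Kcnc1, a potassium channel of fast-spiking cells, was at 96.2 and 77.1 CPM and Syt2, a synaptotagmin of their terminals, at 7.25 and 12.5 CPM in dorsal and ventral libraries, neither of them called, although Kcnc1 was called dorsal-enriched with the GC and length offsets (0.61, edgeR adjusted p = 0.00244).

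Necab1 (ENSMUSG00000040536, chr4:14952245-15149794, minus strand) encodes an EF-hand protein of neurons that also carries a monooxygenase-like domain. It was measured at 216.5, 159.7, 118, 150.3 and 140.3 CPM in dorsal libraries 1 to 5 and at 544, 504.5, 408, 449.8 and 426 CPM in ventral libraries 1 to 5. Dorsal library 1 was the highest of its group and still lay well below every ventral library. The means were 157 ± 36.6 and 466 ± 56.5 CPM (SD, n = 5 each), and the log2 fold change was -1.58 with a standard error of 0.14 (95% interval -1.88 to -1.27, edgeR adjusted p = 1.47e-05). Gm11837, on the opposite strand, overlaps 7.83% of the Necab1 exons and had 18 to 185 counts per library, and without a stated use of strand their reads cannot be told apart there. After Calb2 it had the largest fold difference of the 10 genes.

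Vsnl1 (visinin-like 1, ENSMUSG00000054459, chr12:11325242-11436613, minus strand) encodes a myristoylated sensor of cortical and hippocampal neurons. It ranked 17 of all tested genes by mean CPM. The level in dorsal libraries 1 to 5 was 2339, 2335, 2070, 2024 and 2074 CPM, and in ventral libraries 1 to 5 it was 3629, 4194, 3710, 3144 and 3308 CPM. Every ventral library was above every dorsal library. The means were 2169 ± 155 and 3597 ± 406 CPM (SD, n = 5 each), with a log2 fold change of -0.73 and a standard error of 0.09 (95% interval -0.92 to -0.54, edgeR adjusted p = 0.0001).

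Hpcal1 (ENSMUSG00000071379, chr12:17690856-17791933, plus strand), a hippocalcin-like sensor known from cerebellar Purkinje cells, was a low member. It stood at 22.5, 17.9, 25.35, 24.9 and 22.9 CPM in dorsal libraries 1 to 5 and at 44.9, 51.4, 32.4, 48.2 and 50.2 CPM in ventral libraries 1 to 5. Ventral library 3 was the lowest of its group and the nearest to the dorsal range. The means were 22.7 ± 2.94 and 45.4 ± 7.68 CPM (SD, n = 5 each), and the log2 fold change was -1.01 with a standard error of 0.16 (95% interval -1.34 to -0.67, edgeR adjusted p = 0.000456).

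Hippocalcin (Hpca, ENSMUSG00000028785, chr4:129111570-129122036, minus strand) is a sensor highly expressed in hippocampal pyramidal cells and takes part in the slow afterhyperpolarization there. Its level was 1448, 1661, 1804, 1776 and 1783 CPM in dorsal libraries 1 to 5 and 1039, 1442, 1440, 1288 and 1414 CPM in ventral libraries 1 to 5. Dorsal library 1 and ventral library 2 nearly met, and the groups did not overlap. The means were 1694 ± 148 and 1325 ± 172 CPM (SD, n = 5 each), and the log2 fold change was 0.36 with a standard error of 0.10 (95% interval 0.14 to 0.57, edgeR adjusted p = 0.017), so that the p passed its threshold while the log2 ratio of 0.35 did not reach 0.58 and the gene was not called. With the GC and length offsets the log2 fold change became 0.58 (edgeR adjusted p = 0.000783) and Hpca was called dorsal-enriched, a call that rests on the threshold. By the longest transcript of each gene, Hpca is the richest in GC of the 10 genes (57.8%).

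The other sensors gave no call. Hpcal4 (ENSMUSG00000046093, chr4:123183227-123194701, plus strand), another visinin-like protein, was at 642, 520.1, 639.7, 588.8 and 589 CPM in dorsal and 561, 665, 498, 592.5 and 659.9 CPM in ventral libraries 1 to 5. Its means of 596 ± 49.8 and 595 ± 70.2 CPM (SD, n = 5 each) differed by 0.0008 on the log2 scale, with a 95% interval of -0.21 to 0.21 (edgeR adjusted p = 0.996). Ncs1 (neuronal calcium sensor 1, ENSMUSG00000062661, chr2:31245823-31295989, plus strand), which regulates transmitter release and dopamine D2 receptor desensitization, was at 186, 221, 219, 215 and 218 CPM in dorsal and 196, 208, 167, 213 and 205 CPM in ventral libraries 1 to 5. The means were 212 ± 14.5 and 198 ± 18.2 CPM (SD, n = 5 each), with a log2 fold change of 0.10 (95% interval -0.11 to 0.31, edgeR adjusted p = 0.454). With the GC and length offsets it was 0.32 with an adjusted p of 0.00534, still short of the ratio needed for a call.

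Neurocalcin delta (Ncald, ENSMUSG00000051359, chr15:37366175-37792570, minus strand), a sensor that can activate guanylate cyclases, was at 313, 297, 263, 282 and 267.5 CPM in dorsal libraries 1 to 5 and at 369, 316, 381, 282 and 312 CPM in ventral libraries 1 to 5. The groups overlapped, and the means of 284 ± 20.8 and 332 ± 41.5 CPM (SD, n = 5 each) gave a log2 fold change of -0.22 (95% interval -0.44 to -0.0043), with an unadjusted p of 0.0462 and an edgeR adjusted p of 0.105. Exons of Gm28221 on the opposite strand and Gm49397 on the same strand overlap 7.38% of the Ncald exons, but these genes had 0 and at most 5 counts per library. For Hpcal4 and Ncs1 the intervals leave room for differences of up to 0.21 and 0.31 on the log2 scale.

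**Figure D2:**
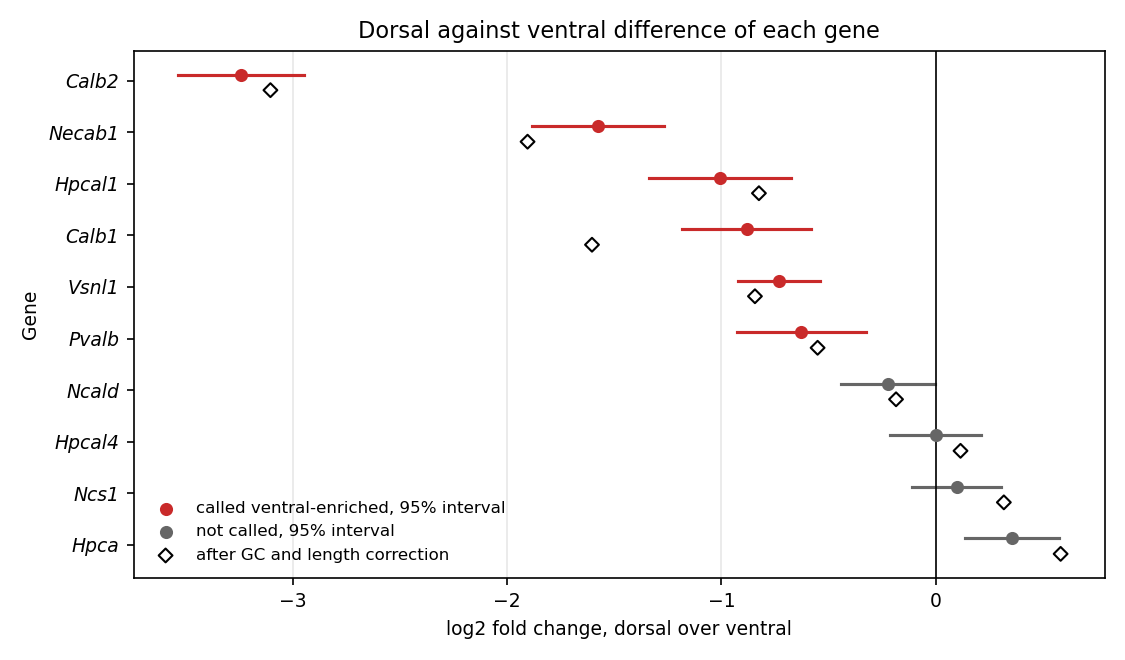
Log2 fold change of dorsal over ventral for each gene, with filled circles and 95% intervals from edgeR's quasi-likelihood fit (red where called ventral-enriched, grey where not called) and open diamonds for the same value with offsets for GC content and exonic length. Calb2 lies at -3.24 and Hpca at 0.36, and the widest move with the offsets is that of Calb1, from -0.88 to -1.60.

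Levels of different genes were compared per length, as CPM per kilobase of annotated exon. In dorsal libraries Vsnl1 led with 1109 ± 79.2, followed by Hpca with 579.9 ± 50.8, Hpcal4 with 112 ± 9.32 and Ncs1 with 45.5 ± 3.12 CPM per kb (SD, n = 5 each), and no neighbours in this order overlapped. Calb2 (37.4 ± 5.35), Ncald (33.1 ± 2.43), Necab1 (29.99 ± 6.99) and Calb1 (25.7 ± 4.70 CPM per kb) followed, and from Ncs1 down to Calb1 every gene overlapped with its neighbour in this order. Pvalb (16.4 ± 1.60) and Hpcal1 (13.4 ± 1.73 CPM per kb) came last and overlapped with each other.

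In ventral libraries Vsnl1 was again first with 1839 ± 207 CPM per kb and overlapped with no other member. Hpca with 453 ± 58.8 and Calb2 with 354 ± 54.3 CPM per kb came next (SD, n = 5 each), and these neighbours overlapped. Calretinin had thus moved from place 5 to place 3 of the 10 genes. Hpcal4 (111.5 ± 13.1) and Necab1 (89.05 ± 10.8 CPM per kb) overlapped in range, although Hpcal4 was the higher in all 5 libraries. Calb1 (47.2 ± 7.18), Ncs1 (42.5 ± 3.91) and Ncald (38.7 ± 4.84 CPM per kb) overlapped with their neighbours in this order, as did Hpcal1 (26.8 ± 4.53) and Pvalb (25.2 ± 2.23 CPM per kb) with each other.

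Summed over the 10 genes, the level was 2002 ± 42.7 CPM per kb in dorsal libraries (1955 to 2058) and 3027 ± 269 CPM per kb in ventral libraries (2738 to 3455), and the ranges did not overlap. Vsnl1 made up 55.3 ± 2.81% of the dorsal sum and 60.7 ± 1.80% of the ventral sum, Hpca 29.0 ± 2.98% and 15.0 ± 2.07%, and Calb2 1.87 ± 0.264% and 11.7 ± 1.37% (SD, n = 5 each). The dorsal and ventral shares of Hpca (24.4% to 31.1% and 11.7% to 16.8%) and of Calb2 (1.44% to 2.09% and 9.998% to 13.8%) lay apart, whereas those of Vsnl1 met at their edges, with 52.9% to 58.8% and 58.7% to 62.5%. The share of Pvalb overlapped between the groups, with 0.817 ± 0.0722% and 0.838 ± 0.108%. Shares sum to a whole, so that a rise in 1 gene lowers the others.

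**Figure D3:**
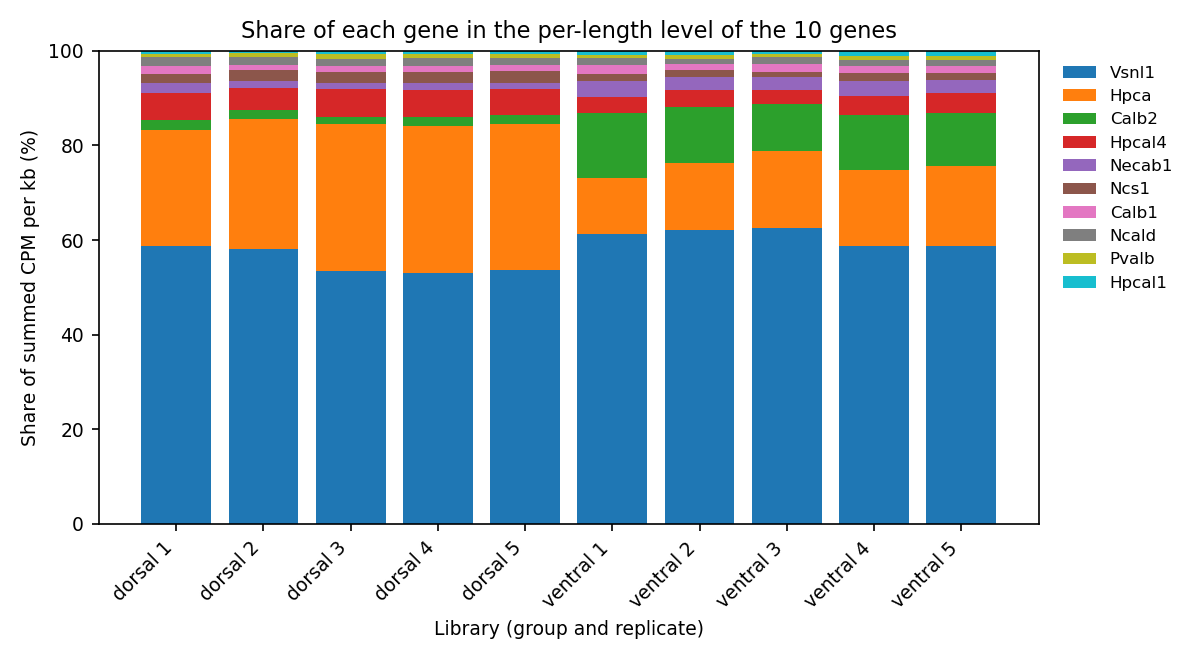
Share of each of the 10 genes in their summed CPM per kilobase (percent), with 1 stacked bar for each library. Vsnl1 takes 52.9% to 62.5% of every bar, Hpca takes a smaller share in the 5 ventral bars than in the 5 dorsal bars, and the share of Calb2 is 9.998% to 13.8% in the ventral bars and at most 2.09% in the dorsal bars.

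For each called member the 3 protein-coding genes with the most similar profile over the 10 libraries were found by the root-mean-square difference between centred log2(CPM + 1) values. For Calb2 the nearest were Klhl14 (0.51), Vwc2l (0.52) and Atg7 (0.57), which makes Calb2 the called member with the most distant neighbours. For Necab1 they were Sqstm1 (0.19), Ldb2 (0.19) and Lrguk (0.24), and for Calb1 they were Fdx1 (0.09), Crot (0.12) and D030056L22Rik (0.14). Vsnl1 was nearest to Bbs4 (0.08), Snx6 (0.08) and Acat1 (0.10), Hpcal1 to Rab3b (0.10), Cpne9 (0.11) and Psmb3 (0.12), and Pvalb to Copg1 (0.06), Ndufs3 (0.08) and Fhl1 (0.08). These distances describe the profiles over the same libraries and were not tested.

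The wider family of calcium sensors and buffers had calls on both sides. Of 41 further genes, among them calmodulin genes, the potassium channel subunits of the Kcnip group and the S100 proteins, 32 were tested, 3 were called dorsal-enriched, 3 ventral-enriched and 26 not called, beside 15.7% and 9.85% of all tested genes, and their median log2 fold change was -0.12. On the dorsal side were Cabp7, a sensor of the Golgi membrane (100.5 ± 10.6 against 47.5 ± 13.7 CPM, log2 fold change 1.07 ± 0.16 SE, adjusted p = 0.000436), Kcnip2, a subunit of A-type potassium channels (90.1 ± 17.6 against 54.9 ± 10.7 CPM, 0.72 ± 0.17, adjusted p = 0.00529), and S100a13 (4.63 ± 0.726 against 2.46 ± 0.8 CPM, 0.88 ± 0.29, adjusted p = 0.0315). On the ventral side were Cib2, a calcium- and integrin-binding protein (6.16 ± 1.77 against 20.4 ± 2.15 CPM, log2 fold change -1.70 ± 0.20, adjusted p = 7.94e-05), Necab3, a relative of Necab1 (19.3 ± 3.35 against 33.3 ± 3.50 CPM, -0.81 ± 0.15, adjusted p = 0.00168), and Efhd2, an actin-binding EF-hand protein (91.9 ± 24.5 against 149.5 ± 13.7 CPM, -0.69 ± 0.17, adjusted p = 0.00651; SD and n = 5 each for levels, edgeR throughout). The counts depend on the GC and length offsets, with which 7 were called dorsal-enriched and 1, Cib2, ventral-enriched. Cabp5 and Ocm were at 0 in all 10 libraries.

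Calmodulin is the most general calcium sensor of the cell. Of its genes, Calm2 stood at 6981 ± 900 CPM (dorsal) and 8462 ± 989 CPM (ventral), with a log2 fold change of -0.28 (edgeR adjusted p = 0.0527), and Calm3 at 1013 ± 95.1 and 1090 ± 84.2 CPM, with -0.10 (edgeR adjusted p = 0.387; SD, n = 5 each). Neither was called.

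Among 28 genes for enzymes and small proteins that calmodulin binds, 27 were tested, 1 was called dorsal-enriched, 5 ventral-enriched and 21 not called, beside 15.7% and 9.85% of all tested genes, with a median log2 fold change of -0.06. The dorsal gene was Mylk, a myosin light-chain kinase (74.5 ± 5.26 against 42.7 ± 10.6 CPM, 0.81 ± 0.15 SE, edgeR adjusted p = 0.00125). The ventral genes were Nos1, the neuronal nitric oxide synthase (36.3 ± 3.43 against 69.4 ± 6.46 CPM, log2 fold change -0.93 ± 0.12 SE, edgeR adjusted p = 0.000124), the cyclic nucleotide phosphodiesterases Pde1a (321 ± 33.8 against 532 ± 31.5 CPM, -0.73 ± 0.09, adjusted p = 0.000133) and Pde1c (11.9 ± 5.44 against 27.0 ± 3.93 CPM, -1.15 ± 0.24, adjusted p = 0.00285), the kinase Camk1g (10.2 ± 1.39 against 22.3 ± 3.25 CPM, -1.12 ± 0.17, adjusted p = 0.000429) and the growth-cone protein Gap43 (457.9 ± 52.0 against 740.5 ± 97.0 CPM, -0.69 ± 0.11, adjusted p = 0.000567). The 5 ventral calls held with the GC and length offsets, with which 6 genes were ventral-enriched and 5 dorsal-enriched. Without the offsets, the dorsal-enriched count of 1 became 2 without dorsal replicate 1 and 3 without dorsal replicate 2. It was 2 without ventral replicate 1, 3 or 5. The ventral-enriched count stayed at 5 with each library left out.

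**Figure D4:**
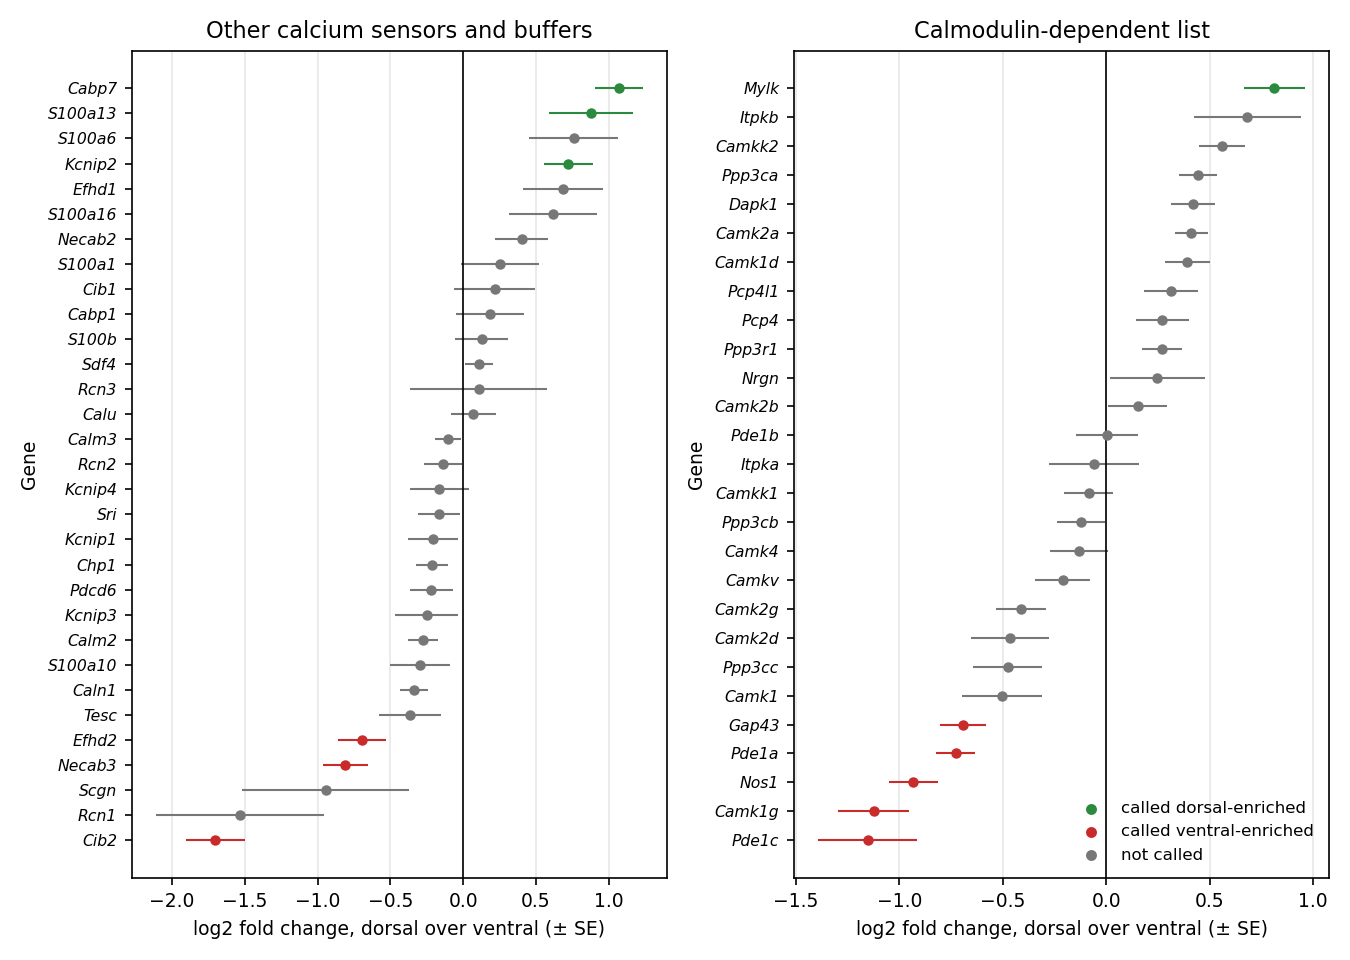
Log2 fold change of dorsal over ventral with its standard error for tested genes of the wider calcium sensor and buffer family (left, 31 genes) and for genes of calmodulin-bound enzymes and small proteins (right, 27 genes), coloured green where called dorsal-enriched and red where called ventral-enriched. Values lie on both sides of 0 in both panels, from -1.70 (Cib2) to 1.07 (Cabp7) on the left and from -1.15 (Pde1c) to 0.81 (Mylk) on the right.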

How the data were processed

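The authors amplified the TRAP RNA (Ovation RNAseq V2), made TruSeq libraries, sequenced paired ends of 50 bases, aligned them to GRCm38 with STAR 2.5.2b and deposited raw counts per Ensembl gene from HTSeq-count 0.7.2. The annotation release and the strand setting are not given in the sources used here. The RNA library kit does not mark strand.

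The counts of 5 dorsal and 5 ventral libraries were compared in R 4.3.3 with edgeR 4.0.16 (quasi-likelihood test, TMM, a filter of CPM above 1 in 2 or more libraries, Benjamini-Hochberg adjustment over 16806 genes), without a covariate. For a call, the adjusted p had to be under 0.05 and the log2 ratio of mean CPM (1 added to each mean) beyond 0.58 in size. Each standard error was had by dividing the log2 fold change by the root of F. The annotation of GRCm38 matched 54809 of 54838 gene identifiers and gave symbols, coordinates and exonic length. GC content was that of the longest transcript of each gene. Chi-square over degrees of freedom was 4.36 to 45.1 between libraries of a group, so none was a duplicate. The script was tested on simulated data.

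Named were all members, called genes of 2 lists (at most 5 per direction) with Calm2 and Calm3, the 3 nearest profiles of each called member, and from the marker lists their first 2 genes where they stand beside a member. The CA3 pyramidal cell list (5 genes, 1 called dorsal-enriched, sums of 284 to 401 against 268 to 295 CPM) was not set beside a member. Its median log2 fold change was 0.42, with 0 genes lower in the dorsal libraries. Its part in the Hpca difference was not tested. A gene of the wider calcium sensor list is counted but not reported here. Members and lists were chosen with earlier results of these data known. Alternatives covered normalization, filters, tests (DESeq2 1.42.0), the replicate block, GC and length offsets (mgcv 1.9.3), gene sets, the share of read pairs on no gene, and each library left out. That share was centred within each group. The dispersions of edgeR 3 were added after seeing the data.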

Additional observations from a re-analysis of the deposited data

Results flagged for a closer look

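The Ncs1 level in dorsal replicate 1, 186 CPM, stood apart from the other 4 dorsal libraries, which lay between 215 and 221 CPM, its gap to the nearest being 0.819 of the range of the group. The limit for 5 samples is 0.71, which chance passes in about 1 of 20 groups, and 20 groups, the 10 genes in each region, were examined. Dorsal replicate 1 was also the lowest dorsal library for Hpca and the highest for Calb1, Calb2, Vsnl1, Necab1, Ncald and Hpcal4, none of which passed the same limit. Without it the log2 fold change of Ncs1 rose from 0.10 to 0.14 (edgeR adjusted p = 0.247), the highest value with any of the 10 libraries left out, and Ncs1 was still not called.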

How the results depend on the processing

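The ventral calls of Calb2, Necab1, Hpcal1, Calb1 and Vsnl1, and the lack of a call for Ncald, Ncs1 and Hpcal4, held in all 15 other settings and with each of the 10 libraries left out, and 5 or 6 members were called ventral-enriched throughout. Among these settings, the share of read pairs on no gene entered as a covariate centred within each group. That setting could not remove the difference in this share between the groups. The ranges over the 15 settings were -3.25 to -3.10 for Calb2, -1.91 to -1.54 for Necab1, -1.01 to -0.81 for Hpcal1, -1.61 to -0.84 for Calb1 and -0.84 to -0.69 for Vsnl1 (log2 fold change, dorsal over ventral). Pvalb lost its call with DESeq2 size factors (-0.5973), upper-quartile factors (-0.5866), the stricter filter (-0.6031), DESeq2 (-0.5947), protein-coding genes alone (-0.5999), GC and length offsets (-0.5506) and these offsets with the replicate block (-0.5575), and ranged from -0.67 to -0.57 with a library left out. Hpca gained a dorsal call with the GC and length offsets (0.5843) and with these offsets and the replicate block (0.5963), which makes 1 dorsal-enriched member in each. The log2 fold change of Hpcal4, close to 0, turned to -0.0007 without the filter and ranged from -0.0582 to 0.0483 with a library left out.

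Among the wider calcium sensors and buffers, the GC and length offsets called 7 genes dorsal-enriched and 1 ventral-enriched, and 6 dorsal-enriched with the replicate block. Of the calmodulin-bound list, 1 dorsal-enriched gene became 3 with DESeq2 size factors, upper-quartile factors, DESeq2 or protein-coding genes, 2 without the filter, with the stricter filter, with the replicate block or with the share of read pairs on no gene as a covariate, and 5 with GC and length offsets with or without the block, and it ranged from 1 to 3 with a library left out. Over all genes, 1665 were dorsal-enriched among protein-coding genes alone, where fewer genes are tested. The cause of the other changes was not tested.

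Dorsal and ventral libraries share replicate numbers, but nothing states that equal numbers share mice. The study's methods describe each hippocampus as divided into a dorsal and a ventral part before pooling. Both groups can therefore hold tissue of the same mice. The deviations of same-numbered libraries correlated at -0.0317 to 0.0695 (mean 0.0159, against -0.00207 for different numbers), and 2 of 5 correlated best with their own number. Low correlations cannot exclude shared mice. The libraries were not treated as pairs because no match of numbers to mice is stated. With the replicate block 2656 genes were dorsal-enriched and 1674 ventral-enriched, 2496 and 1533 of them shared with the fit without it, and no member changed its call. The depth limits Pvalb and Hpcal1 most, with as few as 171 and 239 counts in a library.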

Other observations

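Of the 10 genes, 4 lie on chromosome 4, and Necab1 and Calb1, both ventral-enriched, are neighbours there, with 731 kb between them in GRCm38. This pair was chosen after its values were seen. Only 2 tested genes lie between them. Tmem64 was at 53.4 CPM (dorsal) and 64.3 CPM (ventral), with a log2 fold change of -0.26 (edgeR adjusted p = 0.102), and was not called. Gm11855 was at 0.944 CPM (dorsal) and 0.191 CPM (ventral), with a log2 fold change of 2.40 and a standard error of 0.89 (edgeR adjusted p = 0.0425), and was called dorsal-enriched. Its ventral mean lies within the floor of 0.146 to 0.269 CPM that 3 counts make, so that the size of this difference is poorly known.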
